A study of Mus musculus with 2 samples.

Results

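The miR-183, miR-96 and miR-182 cluster is a group of 3 miRNAs encoded side by side on mouse chromosome 6. Its members were taken by name, as the rows listed as mmu-miR-183, mmu-miR-96 and mmu-miR-182, and all 3 were found among the 696 mouse miRNAs of the array. The prefix mmu-, for mouse, is left out below where no sequence is printed. miRNAs are short RNAs that repress mRNAs, which they recognise mainly through the seed, bases 2 to 8 from the 5′ end. The miR-183 cluster is best known from sensory cells of the ear, the eye and the nose and from sensory neurons, and it is also expressed in epithelia. The embryonic mammary bud is a ball of epithelium that sinks from the surface ectoderm into the mesenchyme below.

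The samples came from untreated ICR mouse embryos at embryonic day 13.5 (E13.5). One was the 3rd mammary gland, called the gland below, and the other was the flank between it and the next gland behind it, the inter mammary gland region, called the inter region below. Total RNA of each region (100 ng) received a Cy3 label and was put on 1 Agilent mouse miRNA array. How many embryos gave each RNA is not given in the sources used here. No difference between the regions has a replicate check and no test was run, since each was hybridized to a single array. Several probes read a miRNA, and a probe is present as a number of identical spots. The spread over spots is technical and says nothing of embryos or dissections. In whole tissue, more cells that express a miRNA and more of it per cell cannot be told apart.

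All 3 members were detected in both regions, and all 3 were brighter in the gland, as were 57.7% of the 284 miRNAs detected in both regions. The signal of miR-96 was 1.47-fold higher there, that of miR-182 1.39-fold and that of miR-183 1.31-fold. None of them reached the 1.5-fold threshold used here, and miR-96 came closest. These ratios are of scaled signals: background-subtracted spot intensities were averaged per probe, divided by the 75th percentile of those probes that both arrays detected (786 in the gland, 719 in the inter region), and averaged per miRNA. Detection of a probe required over 50% of its used spots to be well above background, and detection of a miRNA required 1 such probe. Among the 284 miRNAs detected in both regions, 6 (2.11%) were higher by 1.5-fold or more in the gland and 26 (9.15%) were lower by as much. The cluster contributed 0 to either count.

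The hairpins lie on the minus strand of chromosome 6 within 3820 bases, in the order Mir183, Mir96 and Mir182 in the direction of transcription. In the RefSeq table of assembly GRCm38.p6, Mir183 is at chr6:30169668-30169737, Mir96 at chr6:30169446-30169551 and Mir182 at chr6:30165918-30165992. Only 116 bases separate Mir183 from Mir96, and 3453 separate Mir96 from Mir182. All 3 hairpins lie inside the long non-coding RNA gene Mirc35hg, on the same strand, between the protein-coding genes Nrf1 and Ube2h. The table held 0 other miRNA genes within 50 kb of the cluster. The array's own grid names the mm9 assembly, so the coordinates are those of RefSeq and not of the array files.

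The mature sequences are shown because the members differ in the seed as well as in their signals. The array files give names without sequences, and each name without a star was matched to the 5p strand in RefSeq (3 of 3 matched). Capitals mark the seed.
mmu-miR-183-5p: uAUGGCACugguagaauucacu
mmu-miR-96-5p: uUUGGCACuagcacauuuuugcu
mmu-miR-182-5p: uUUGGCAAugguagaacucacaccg
The seeds are close but not the same. With positions counted from 1 at the 5′ end, miR-183 differs from miR-96 in the seed by A2U alone, miR-96 differs from miR-182 by C8A alone, and miR-183 differs from miR-182 by both. miR-96 and miR-182 therefore share bases 2 to 7. Of all other mouse mature sequences in the table, 1 has bases 2 to 8 of miR-96, that of miR-1271-5p, and no row of the array was found under that name. Over their whole length, aligned from the 5′ end without gaps, miR-183 and miR-182 are the most alike, with 18 of 22 positions identical, against 13 of 22 for miR-183 with miR-96 and 12 of 23 for miR-96 with miR-182. The longest run shared by miR-183 and miR-182 is UGGUAGAA, which starts at base 9 in both. Whether a probe for one member also binds another was not tested.

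miR-96 had the highest ratio of the members. It is a regulator of hair cell maturation in the inner ear. For its first probe the background-subtracted signal ran over 10 spots from 794 to 1066 (median 917) in the gland. In the inter region the same probe ran from 499 to 637 (median 601). The spots of the regions did not overlap, before or after scaling. For the second probe the values were 992 to 1308 (median 1184) in the gland, and 678 to 762 (median 718) in the inter region, again without overlap. After scaling, the probes gave nearly the same ratio, 1.46 and 1.49. The ratio of the miRNA was 1.47, a log2 ratio of 0.56 with a standard error of 0.036 over spots, and the 95% interval from this error ran from 1.40 to 1.55. It covers spot error only, and it includes the threshold of 1.5.

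miR-182 is encoded farthest from the other 2 members, and the ratios of its probes lay the furthest apart in the cluster. Its first probe ran from 115 to 135 (median 121) in the gland and from 57.7 to 76.9 (median 71.5) in the inter region. The second ran from 541 to 634 (median 581) and from 365 to 436 (median 391), respectively. On neither probe did the regions overlap, also after scaling. The ratio was 1.59 for the first probe and 1.36 for the second, so the probes of miR-182 lie on either side of 1.5-fold. Averaging the scaled signals of the probes before dividing gave 1.39, closer to the ratio of the brighter second probe. The first probe was above both probes of miR-96 (1.46 and 1.49) and the second below them, so the order of these members depends on the probe. For miR-182 the log2 ratio was 0.48, with a standard error of 0.030 over spots and a 95% interval of the ratio from 1.34 to 1.45. This interval covers spot error within probes only, and the ratio of the first probe lies outside it.

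miR-183, which gives the cluster its name, had the lowest ratio. Its first probe ran from 347 to 436 (median 377) in the gland and from 231 to 277 (median 244) in the inter region, without overlap. Its second probe ran from 531 to 696 (median 584), and from 397 to 515 (median 424), respectively, also without overlap. After scaling, the lowest spot of this second probe in the gland (0.675) was below the highest in the inter region (0.717), so here the regions overlapped. It was the only one of the 6 probes of the cluster whose scaled spots did so. How many probes of the whole array were without overlap was not counted. Counted per miRNA, 10.2% of the 284 had every probe higher in the gland without overlap. The ratios of the miR-183 probes were 1.42 and 1.25. Over both, the ratio of miR-183 was 1.31, a log2 ratio of 0.40 with a standard error of 0.045 over spots and a 95% interval from 1.24 to 1.40. This interval too covers spot error within probes only, and the ratio of the first probe lies outside it.

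**Figure D1:**
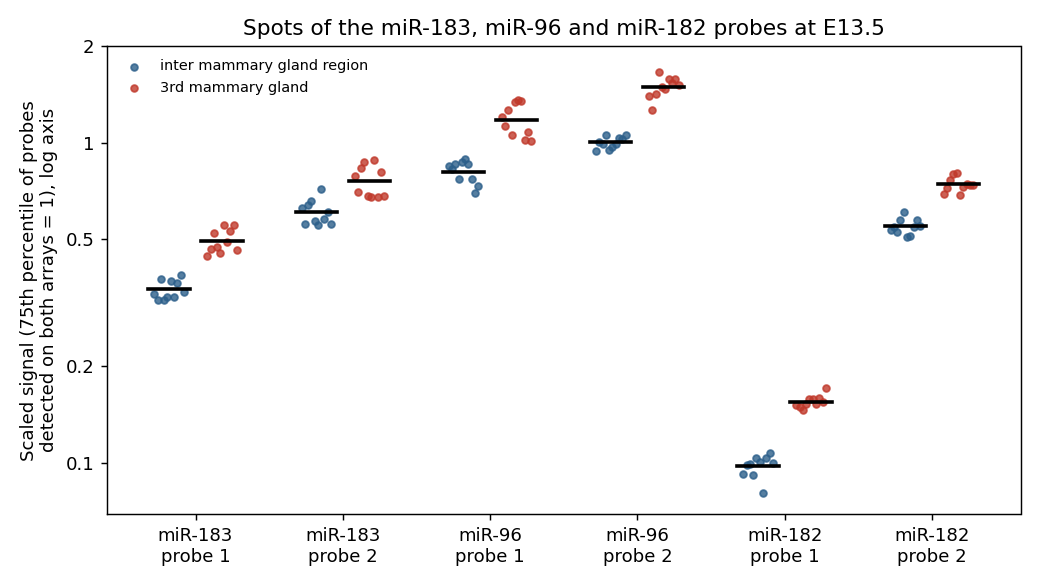
Each point is 1 spot of a probe for miR-183, miR-96 or miR-182, as a scaled signal on a log axis, in the inter mammary gland region (blue) or the 3rd mammary gland (red); lines mark the mean of 10 spots. On all 6 probes the mean is higher in the 3rd mammary gland, and only the scaled spots of miR-183 probe 2 overlap. Of the 284 miRNAs detected in both regions, 10.2% had every probe higher in the 3rd mammary gland without overlap.

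The signals of the cluster were far above background. All 120 spots of the 3 members on both arrays were well above background, beside 38.1% of all miRNA spots on each array. Of these 120 spots 0 were marked as outliers, beside 1.67% of all miRNA spots in the gland and 2.51% in the inter region. The negative control spots averaged 3.81 ± 5.28 (SD, 432 spots) with a highest signal of 17.3 in the gland, and 2.23 ± 5.07 (SD, 428 spots) with a highest signal of 19.2 in the inter region. The lowest spot signal of the 3 members, from miR-182 in the inter region, was 57.7. The SD over the 10 spots of a probe was between 4.13% and 11.9% of its mean.

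Each spot could also be set against the spot at the same place on the other array. For all 3 members the spot in the gland was the brighter after scaling in 20 of 20 such pairs. The same held in every pair for 22.2% of the 284 miRNAs. The ratio of a pair ran from 1.26 to 1.59 for miR-96, from 1.29 to 1.90 for miR-182 and from 1.17 to 1.49 for miR-183. The widest of these ranges was that of miR-182. With every probe required to be higher in the gland without overlap of the scaled spots, miR-96 and miR-182 passed and miR-183 did not. Of the 284 miRNAs detected in both regions, 29 (10.2%) passed this.

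The log2 ratios of the members spanned 0.16 and lay above the upper quartile of all ratios. The log2 ratios of the 284 miRNAs had a median of 0.048, with the middle part (the quartiles) between -0.14 and 0.22. Above miR-96 there were 8 miRNAs, above miR-182 there were 14 and above miR-183 there were 23. These ranks moved with the processing, over 12 alternatives from 3 to 15 above miR-96, from 12 to 26 above miR-182 and from 19 to 41 above miR-183. They also count dim miRNAs. Among the 272 miRNAs whose mean signal was over the highest negative control spot on both arrays, 6 were above miR-96, 12 above miR-182 and 20 above miR-183. The log2 ratio of miR-183 was 0.16 below that of miR-96, with a standard error of 0.058 over spots, and 0.082 below that of miR-182, with a standard error of 0.054. That of miR-182 was 0.083 below that of miR-96, with a standard error of 0.047. These errors are technical and were not used as tests. Relative to the median of all 284 miRNAs, the log2 ratio was 0.51 for miR-96, 0.43 for miR-182 and 0.35 for miR-183.

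Whether a member passed 1.5-fold depended on the scaling between the arrays. With no scaling the log2 ratio of all 284 miRNAs had a median of 0.18, and miR-96 (1.61-fold) and miR-182 (1.52-fold) passed while miR-183 (1.44-fold) did not. Of the 284 miRNAs, 5.28% were then at least 1.5-fold higher. When the 75th percentile was taken over all probes the median was 0.21, and miR-96 was 1.65-fold and miR-182 1.55-fold higher, where 6.69% of the miRNAs passed. With the median probe of those detected on both arrays as the divisor the median was 0.17, miR-96 was 1.60-fold and miR-182 1.51-fold higher, and 5.28% passed. miR-183 passed under none of these scalings. The distance of each member from the median of all miRNAs is the same under each of these 3 scalings, which divide every probe of an array by 1 number.

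Feature Extraction, the software that read the scans, also gives a total signal for each miRNA with its own error. For miR-96 it was 1392 (error 99.6) in the gland and 844 (error 60.3) in the inter region. For miR-182 it was 467 (error 39.9) and 300.0 (error 26.4), and for miR-183 it was 653 (error 47.7) and 444 (error 33.0). The software called all 3 detected on both arrays. So it did for 323 of the 696 miRNAs, counted where the mean signal was also positive on both. The order of the members' unscaled quotients was that of the spots, with 1.65 for miR-96, 1.56 for miR-182 and 1.47 for miR-183.

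A hairpin gives a strand from each arm, and the less abundant one was marked with a star in older names. Of the star strands of the cluster, miR-183* was the only one found on the array. It was read by 4 probes of 5 spots, and most of these were at or near background. In the gland 2 of the probes had a mean of -0.39 and 3.56, below the highest negative control spot. A single probe had all 5 spots well above background on both arrays. It gave 58.3 ± 6.01 (SD over 5 spots) in the gland and 50.6 ± 3.91 (SD over 5 spots) in the inter region, with a scaled ratio of 1.05 and overlapping spots. The other 3 probes of miR-183* were not detected in either region. The ratio over all 4 probes, 1.03, includes them, so no difference from the guide strand miR-183 is given.

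The epithelial list held the miR-200 family (miR-200a, miR-200b, miR-200c, miR-141 and miR-429), which maintains E-cadherin by repressing Zeb factors, together with miR-203 and miR-205 of stratified epithelium. All 7 were detected in both regions, 5 with a ratio above 1 and 2 below, and 0 of them passed 1.5-fold, where 57.7% of the 284 miRNAs had a ratio above 1 and 2.11% were past 1.5-fold in this direction. Like miR-96 and miR-182, miR-200a passed with no scaling (1.56-fold), by the 75th percentile over all probes (1.59-fold) and by the probes' median (1.55-fold). It passed in 4 of the 7 settings run for the lists, the main one included, and the other 6 passed in none. The median log2 ratio of the list was 0.34, beside 0.48 for the miR-183 cluster and 0.048 for all 284 miRNAs. Its summed scaled signal differed less, with 13.9 in the gland and 13.3 in the inter region (a quotient of 1.05), and miR-205 was the brightest in both. Without miR-205 the sums were 7.15 and 6.38. The miR-200 family was near the cluster, with scaled ratios of 1.43 for miR-200a, 1.32 for miR-429, 1.30 for miR-200b, 1.27 for miR-200c and 1.15 for miR-141. The signal of miR-200a was 685 in the gland and 439 in the inter region. For all 5 of the family the scaled spot was brighter in the gland in every pair, as it was for 22.2% of the 284 miRNAs. Among miRNAs of the lists below that were detected in both regions, it also held for miR-199a-3p, miR-199a-5p, miR-214, miR-218, miR-143 and miR-451. miR-203, which promotes the differentiation of epidermal cells, differed in direction. Its signal was 1485 and 1686, and it was 1.24-fold lower in the gland. miR-205 had a ratio of 0.985, but it was above 1 under 5 of 6 alternatives, up to 1.23 after quantile normalization, so no direction is given for it. The other 6 kept their direction under 5 other scalings or signals and after a further background correction (normexp).

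Neural miRNAs were looked at because the cluster is known from sensory neurons. miR-124, a widely used miRNA marker of neurons, was not detected in either region, with a signal of 3.15 in the gland and -0.19 in the inter region. Both signals were below the highest negative control spot of their array. miR-9, a miRNA of neural progenitors, had 15.6 and 6.92 and miR-137 had 22.6 and 9.73, and by the rule on spots neither was detected in either region. The software did call both detected in the gland, with a total signal of 13.1 for miR-9 and 29.9 for miR-137, but not in the inter region. The other 5 of the 8 listed, miR-128, miR-138, miR-218, miR-219 and miR-7a, were detected in both, 1 with a ratio above 1 and 4 below, beside 57.7% above 1 of all 284, and their median log2 ratio was -0.22. The count is not stable, since 2 of the 4 below turned under other settings. Signals of miR-128 were 1.48-fold lower in the gland. miR-219 was 1.27-fold lower and miR-7a 1.11-fold lower, while miR-218 was 1.14-fold higher. miR-138 was dim, and 1 of its probes had 0 of 10 spots well above background on either array, so no fold is given for it. Its log2 ratio is also the median of the list, which is limited in the same way. The log2 ratio of miR-7a turned to 0.013 by the 75th percentile over all probes and to 0.14 after quantile normalization. That of miR-138 turned only with the scaled total signals, to 0.022. The summed scaled signal of the 8 was 1.28 in the gland and 1.26 in the inter region, and miR-218 was the brightest in both. Without miR-218 the sums were 0.408 and 0.494, the other way round.

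Among the lists, the muscle miRNAs had the ratios farthest from 1. Of the 7 listed, miR-1, miR-133a, miR-133b and miR-206, which are made by striated muscle, were detected in both regions. All 4 were lower in the gland, by 2.17-fold, 2.31-fold, 2.40-fold and 2.69-fold. Of all 284 miRNAs, 9.15% were lower by 1.5-fold or more, and 57.7% had a ratio above 1. The summed scaled signal of the muscle list, with its other 3 members included, was 2.14 in the gland and 5.09 in the inter region. Of the list, miR-133b was the brightest in both. By the rule on spots miR-499 was detected in the inter region alone, while the software called it detected in both, with a total signal of 34.0 in the gland and 46.5 in the inter region. For miR-208a and miR-208b, of heart and slow muscle, neither region had a detected probe. Ratios farther from 1 than those of muscle were also present, as 9 of the 284 miRNAs lay below the lowest muscle ratio. The lowest log2 ratios were those of miR-2134 (-4.91), miR-689 (-3.70), miR-2138 (-3.59), miR-1224 (-3.58) and miR-2135 (-2.45), all lower in the gland. What part the muscle miRNAs or these had in the ratios of the cluster was not tested.

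In the other lists the ratios were smaller or mixed. The mesenchymal miRNAs miR-199a-3p, miR-199a-5p and miR-214 had ratios of 1.25, 1.17 and 1.20, with a summed scaled signal of 35.1 in the gland and 28.8 in the inter region, and miR-199a-3p was the brightest. miR-199b of this list was not found on the array under its listed name. Of 7 blood miRNAs, 5 were detected in both regions, 2 with a ratio above 1 and 3 below, beside 57.7% above 1 of all 284. Their median log2 ratio was -0.060, and by the rule on spots miR-142-5p and miR-150 were detected in neither region. The software called miR-142-5p detected in both regions, with a total signal of 35.6 in the gland and 26.2 in the inter region. Of the red blood cell miRNAs, miR-451 was 1.36-fold higher in the gland and passed 1.5-fold by the 75th percentile over all probes (1.52-fold) and after quantile normalization (1.73-fold). miR-144 was 1.11-fold higher, while miR-486 was 1.31-fold lower, with the scaled spot brighter there in 0 of 16 pairs. miR-223 was 1.08-fold and miR-142-3p 1.04-fold lower, and both turned direction under another scaling. The summed scaled signal of the 7 was 7.94 in the gland and 6.06 in the inter region. Most of it was that of miR-451, the brightest, and the other 6 summed to 0.712 and 0.738. Of 3 vessel miRNAs, miR-126-3p (1.03) and miR-143 (1.19) were detected in both regions and miR-145 in neither. Their summed scaled signal was 2.80 and 2.68, and miR-126-3p was the brightest. The part of blood, mesenchyme and vessels in the ratios of the cluster was not tested.

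**Figure D2:**
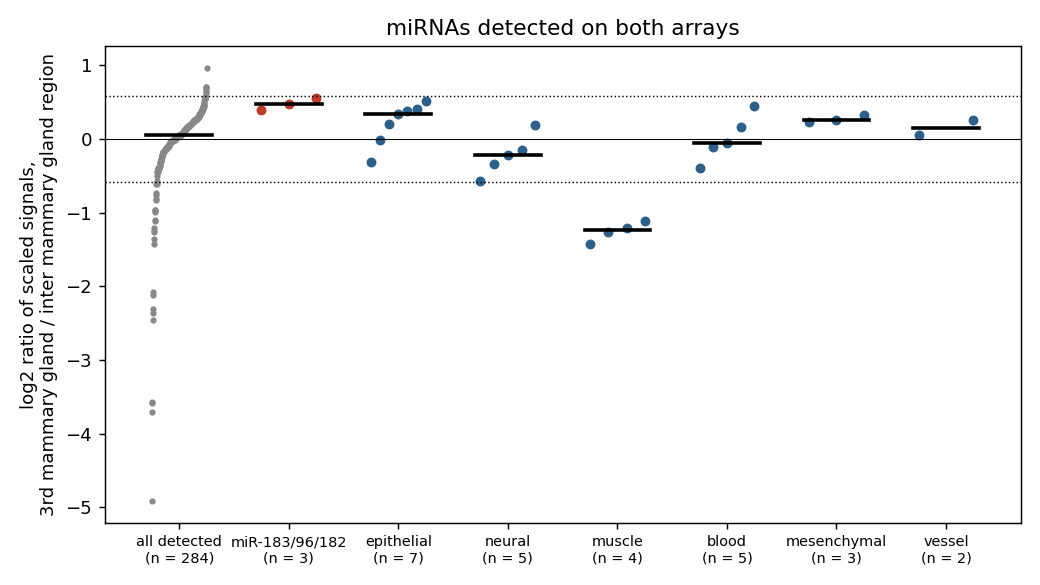
The log2 ratio of scaled signals, with the 3rd mammary gland as numerator and the inter mammary gland region as denominator, is plotted for each miRNA detected on both arrays, for all 284, for the miR-183 cluster and for 6 lists of cell type miRNAs; thick lines are medians and dotted lines mark 1.5-fold in each direction. The 3 members of the cluster lie between 0.40 and 0.56, above the median of 0.048, and the 4 muscle miRNAs lie at -1.12 or below.

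Over 2 arrays the pattern of a miRNA is a single ratio, so likeness was measured as the difference of log2 ratios among the 284 miRNAs, and many miRNAs are alike by it. Nearest to miR-183 were miR-18a*, miR-429 and miR-10a, all within 0.0042. Of these miR-18a* was dim, with a mean signal of 13.3 in the gland and 9.23 in the inter region, below the highest negative control spots, so its nearness carries little information. Nearest to miR-96 were miR-181c, miR-224 and miR-99a, all within 0.0052. Nearest to miR-182 were miR-23a, miR-200a and miR-451, all within 0.035. Of these 9, miR-429 and miR-200a belong to the miR-200 family and miR-451 to the blood list.

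Because the 3 members lie in 1 host gene and were higher together, the promoter of Mirc35hg is given as well. RefSeq places it at chr6:30174076-30174375 on the minus strand of GRCm38.p6, with 250 bases before and 50 after the start of the gene. Capitals mark 2 motifs searched on both strands, CACCTG, an E-box that Zeb and Snail repressors of epithelial genes can bind, and GGGCGG, the GC box of Sp factors, which also appears as its reverse complement CCGCCC.
Mirc35hg promoter: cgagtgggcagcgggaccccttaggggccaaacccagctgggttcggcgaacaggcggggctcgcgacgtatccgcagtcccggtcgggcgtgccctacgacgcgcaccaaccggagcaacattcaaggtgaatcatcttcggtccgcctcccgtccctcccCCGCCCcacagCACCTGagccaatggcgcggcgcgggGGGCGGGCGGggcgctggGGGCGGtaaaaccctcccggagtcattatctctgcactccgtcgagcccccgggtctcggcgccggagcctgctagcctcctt
The E-box occurs 1 time and the GC box 4 times, and 2 of the GC boxes overlap each other. Of 32851 mouse promoters of the same length in the table, 20.2% hold this E-box and 35.7% this GC box on either strand. G and C make up 70.3% of the window, against a median of 52.7% over all promoters. The matches describe letters only, and binding was not measured here.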

How the data were processed

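miRNA levels were measured on 1 array per region, assigned from the labels. Spots had been quantified by the authors in Feature Extraction (10.7.3.1 per the file headers), and the deposited intensity of a spot is background-subtracted, linear and not normalized between arrays. The methods name GeneSpring GX for normalization, without the settings. The deposited value table equals the software's total intensity for 696 of 696 miRNAs on both arrays (relative tolerance 1e-05), with 0.1 for those not called detected, which is also the median of each column. It is linear and was not centred.

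Control spots and outlier spots (1.67% and 2.51% of miRNA spots) were left out, and the spots of a probe, then the probes of a miRNA, were averaged after scaling. Standard errors were propagated from the SD over the spots of each probe and leave out the difference between probes. The steps were tested on simulated spots. No miRNA spot was saturated (0 on each array). The number of arrays limits the precision. Named miRNAs were the members, miR-183*, miRNAs sharing a seed, miRNA genes within 50 kb, the epithelial and neural lists, and the 3 nearest ratios to each member. No column of sample values went unused. The members and lists were chosen with earlier results of these data known, members of the other lists were named to show their values, and the 5 lowest ratios were named after their values were seen. Alternatives covered scaling, signal column, background correction, detection, dim miRNAs, outlier spots, probes, spots and threshold. The normexp correction used an offset of 50 on the median pixel signal of a spot. Computing was done in R 4.3.3 (limma 3.58.1) and in Python 3.11.15 (numpy 2.4.6, pandas 2.3.3, matplotlib 3.10.9).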

Additional observations from a re-analysis of the deposited data

How the results depend on the processing

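Under all 12 alternatives the 3 members stayed higher in the 3rd mammary gland, with ratios from 1.25 to 1.47 for miR-183, 1.41 to 1.65 for miR-96 and 1.31 to 1.56 for miR-182. In the main setting 57.7% of the 284 miRNAs had a ratio above 1. How many of them stayed above 1 under all 12 was not counted. The log2 ratios that moved by more than 1 SD over spot pairs were, for miR-183 (0.40), 0.53 with no scaling, 0.55 by the 75th percentile over all probes, 0.51 by the probes' median and 0.56 from the value table. For miR-96 (0.56) they were 0.69, 0.72, 0.68 and 0.72 in the same order. For miR-182 (0.48) they were 0.64 by the 75th percentile over all probes and 0.64 from the value table. With no scaling and by the probes' median, miR-182 shifted by as much as the other members. It was not counted there because its SD over spot pairs was wider, 0.15 beside 0.11 for miR-183 and 0.095 for miR-96. miR-96 also passed 1.5-fold after quantile normalization (1.52) and from scaled totals (1.57). The median of the epithelial list (0.34) was 0.47 with no scaling, 0.50 by the 75th percentile over all probes, 0.46 by the probes' median, 0.44 from scaled totals and 0.51 from the value table. The count of miRNAs at least 1.5-fold higher (6) was 15 with no scaling and by the probes' median, 19 by the 75th percentile over all probes, 14 after quantile normalization and from scaled totals, 20 from the value table, 13 with the software's detection call, 2 after normexp and 0 at 2-fold. The count lower (26) was 16 at 2-fold and otherwise within 1.5 times. Of the calls, 18.8% were higher in the main setting, 39.5% with no scaling and by the probes' median, 46.3% by the 75th percentile over all probes, 38.9% after quantile normalization, 36.8% from scaled totals, 48.8% from the value table and 28.3% with the software's detection call. It was lower after normexp (10.0%), with every spot required above background (13.3%), with every probe detected (16.0%) and from the brightest probe (16.7%), and 21.2% from the median of spots. A 2-fold threshold gives fewer calls by its construction. Of all else that moved, the cause was not tested. Dim signal limits what can be said of miR-183*. Pairing was not applicable with a single array per region.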
